A study of Arabidopsis thaliana with 34 samples.

Results

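AT4G22470 and AT4G12490 are genes of the lipid transfer protein family of Arabidopsis thaliana, each measured by a probe set of its own on the ATH1 array (254314_at and 254832_at). They are 2 of the 13355 genes that had such a probe set here. Both were chosen by their measured log2 levels across the 12 groups of accession and condition, with no threshold, so their levels and differences are given as a description and carry no test. The array measures transcripts, and no protein was measured.

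Plant lipid transfer proteins are small secreted proteins whose cysteines form disulfide bridges around a cavity that can hold a fatty acid or another lipid. Hybrid proline-rich proteins carry the same cysteine domain at their carboxyl end behind a proline-rich stretch, and many of them sit at the cell wall or in the envelope of plastids. Other branches of the family are the type I and type II lipid transfer proteins, DIR1, a mobile protein of systemic acquired resistance, and the lipid transfer proteins anchored to the plasma membrane by glycosylphosphatidylinositol (GPI). AZI1 and EARLI1, neighbours of AT4G12490 on the chromosome, are hybrid proline-rich genes known for systemic immunity and for responses to cold.

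Leaf RNA came from the natural accessions Columbia-0, Rschew and Tenela, written Col, Rsch and Te here, and no group carried a mutation or transgene per the labels. All plants had grown for 42 days in a 16-h day and had then spent 14 days at 4 °C. The cold acclimated (CA) leaves were taken from intact plants in that state. The other leaves were detached from such plants, put in tubes with water and held without freezing at -3 °C in darkness, with sampling at 8 h, at 1 d and at 3 d, so a difference from CA covers detachment, darkness and time as well as temperature. Each of the 34 arrays held RNA pooled from 3 leaves of 3 plants. There were 3 independent biological replicates a group, but 2 arrays for Col at 8 h and for Col at 3 d, and this small number limits the precision. The probes follow the Columbia sequence, so a lower transcript level and a poorer probe match in Rsch or Te cannot be told apart.

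Array medians lay between 5.97 and 6.22 log2. Of the 5 leaf marker genes measured, the lowest value in CA leaves was 9.11, and PYK10, a root marker, stayed between 3.27 and 3.89 on all arrays. The 5 leaf markers were called lower for 0, 4 and 5 members at 8 h, 1 d and 3 d, where 2.59%, 15.5% and 21% of all probe sets were called lower. The guard cell marker FMA and the phloem marker SWEET11 were not called at any time, and no epidermis, seed or flower marker was measured here. A set of 9 arrays, replicate 1 of CA, 1 d and 3 d in each accession, had a mean bioC hybridization control of 7.05 against 8.34 on the other 25. No 8 h array was in the set of 9, so 8 h and CA differ in their share of it. The gap between the 3' and 5' actin probe sets, which widens with RNA decay or short labelling products, averaged 2.21 log2 on those 9 arrays and 1.48 on the 25. By time it was 1.74 ± 0.30 in CA leaves (SD, n = 9), 1.44 ± 0.18 at 8 h (n = 8), 1.65 ± 0.40 at 1 d (n = 9) and 1.86 ± 0.49 at 3 d (n = 8), and its part in the differences between times was not tested. In a bulk leaf sample, fewer cells of a type and less RNA per cell cannot be told apart.

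A pair of Te arrays went against their labels. A score was taken as the mean of the 200 probe sets that differed most upwards minus the mean of the 200 that differed most downwards between 3 d and 1 d in the other 2 accessions. The array labelled Te 1 d replicate 1 scored 1.39, while the other 8 arrays of that time scored -2.37 to -0.93. The array labelled Te 3 d replicate 1 scored -1.35, while the other 7 arrays of that time scored 0.11 to 1.07. Both belong to the set of 9 and had the widest actin gaps of all arrays, 2.51 and 2.55 log2. The main values that rest on these arrays are also given without them.

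AT4G22470 was lowest in the cold acclimated leaves of each accession and stood far higher at every sub-zero time in the 3 accessions. Averaged over accessions, its difference from CA was 3.26 ± 0.38 log2 (SE) at 8 h, 4.97 ± 0.36 at 1 d and 5.48 ± 0.38 at 3 d. Among 22746 probe sets this average difference ranked 11th from the top at 8 h, 2nd at 1 d and 1st at 3 d. The gene was chosen for this pattern, and the ranks describe it.

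**Figure D1:**
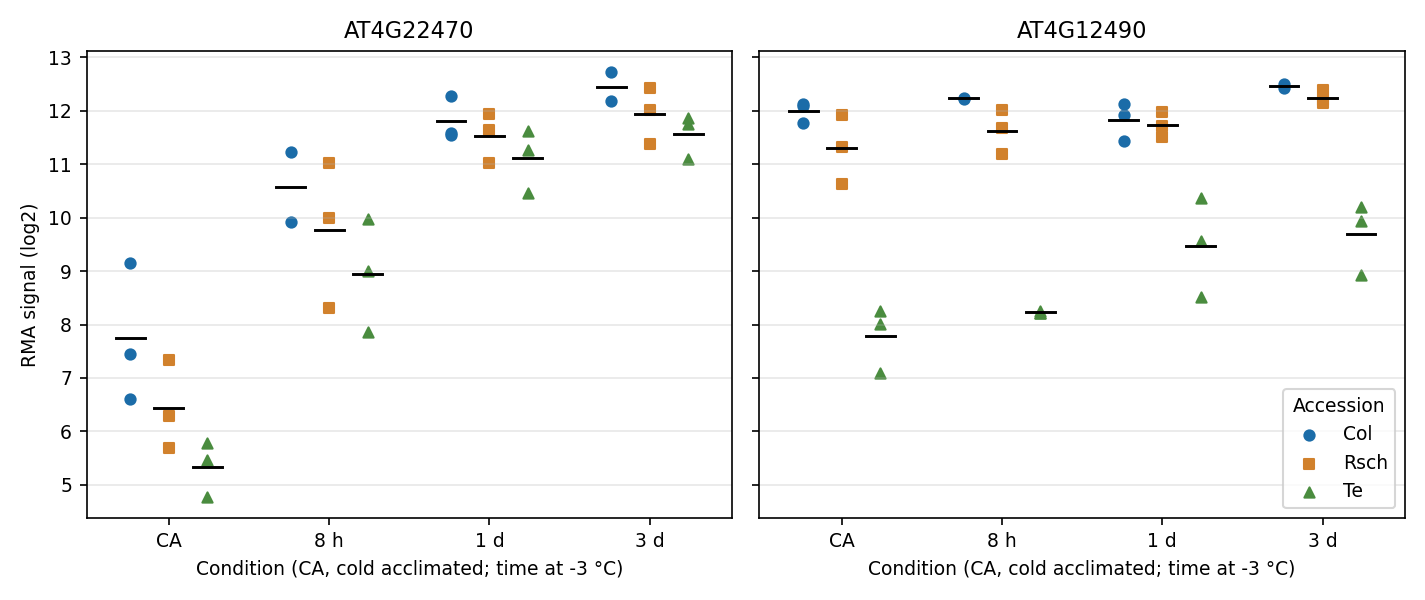
RMA signal (log2) of AT4G22470 (left) and AT4G12490 (right) on every array, by condition (CA, cold acclimated, then the time at -3 °C) and accession, with the group mean as a bar. AT4G22470 climbs from CA means of 5.34 to 7.74 to 3 d means of 11.57 to 12.45, and the Te points of AT4G12490 all lie below the Col and Rsch points.

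Cold acclimated Col leaves gave AT4G22470 levels of 6.61, 9.16 and 7.45 log2. At 8 h the Col arrays read 9.93 and 11.23, at 1 d 11.58, 12.28 and 11.55, and at 3 d 12.18 and 12.72. Every sub-zero Col array lay above every cold acclimated one, by at least 0.77 log2 at 8 h and at least 3.02 at 3 d. CA replicate 2 in Col stood above the other CA arrays of all 3 accessions, and without it the Col difference at 3 d was 5.42 in place of 4.71.

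In Rsch the CA levels of AT4G22470 were 5.70, 6.30 and 7.34 log2. The 8 h arrays were spread from 8.30 through 9.99 to 11.02, the 1 d arrays read 11.02, 11.64 and 11.95, and the 3 d arrays 11.37, 12.42 and 12.01. The smallest gap between a sub-zero array and the highest CA array was 0.96 at 8 h and 4.03 at 3 d, so no sub-zero array overlapped with CA. The highest 8 h array and the lowest 1 d array both read 11.02 and overlapped, and so did the 1 d and 3 d arrays, while the 8 h arrays all lay below those of 3 d.

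Te began lowest, with CA levels of 5.46, 5.78 and 4.78 log2. Its 8 h arrays read 7.87, 9.01 and 9.98, its 1 d arrays 11.61, 11.26 and 10.47, and its 3 d arrays 11.10, 11.87 and 11.75. All sub-zero Te arrays exceeded all CA Te arrays, by at least 2.09 at 8 h and 5.31 at 3 d. The array labelled Te 1 d replicate 1 was the highest of its group and the array labelled Te 3 d replicate 1 the lowest of its own. Without this pair the Te means were 10.87 at 1 d and 11.81 at 3 d, against 11.11 and 11.57 with it, and the Te differences from CA were 5.52 and 6.47.

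Within accessions, the difference of AT4G22470 from CA at 3 d was 4.71 ± 0.70 log2 in Col, 5.49 ± 0.63 in Rsch and 6.23 ± 0.63 in Te, which are 26.2-, 44.8- and 75-fold differences in signal. At 1 d it was 4.06 ± 0.63, 5.09 ± 0.63 and 5.77 ± 0.63, and at 8 h 2.84 ± 0.70, 3.33 ± 0.63 and 3.61 ± 0.63. The Te values start from a low signal, since the Te CA mean of 5.34 log2 lay below every array median. It was close to 5.32, the 40th percentile of all values. The estimates ran in the order Col, Rsch, Te at each time, with neighbouring accessions less than 2 of these SEs apart. At 8 h single arrays moved them across each other, since Col gave 3.55 without its CA replicate 2 and Rsch gave 4.06 without its 8 h replicate 1. Within the larger bioC set alone, which holds all 8 h arrays, the 8 h difference was 2.27 in Col, 2.95 in Rsch and 3.67 in Te. Its average over accessions was 2.96 there. On the log2 scale the 3 accessions had covered 60.2%, 60.6% and 57.9% of their own 3 d difference at 8 h. At 1 d the shares were 86.2%, 92.7% and 92.7%. These shares carry no error estimate and hold for the log2 scale only, and whether the time courses differ was not tested. The Te shares include the doubted arrays, without which the Te differences were 5.52 at 1 d and 6.47 at 3 d. The step from 8 h to 1 d averaged 1.72 ± 0.38 and that from 1 d to 3 d 0.50 ± 0.38.

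**Figure D2:**
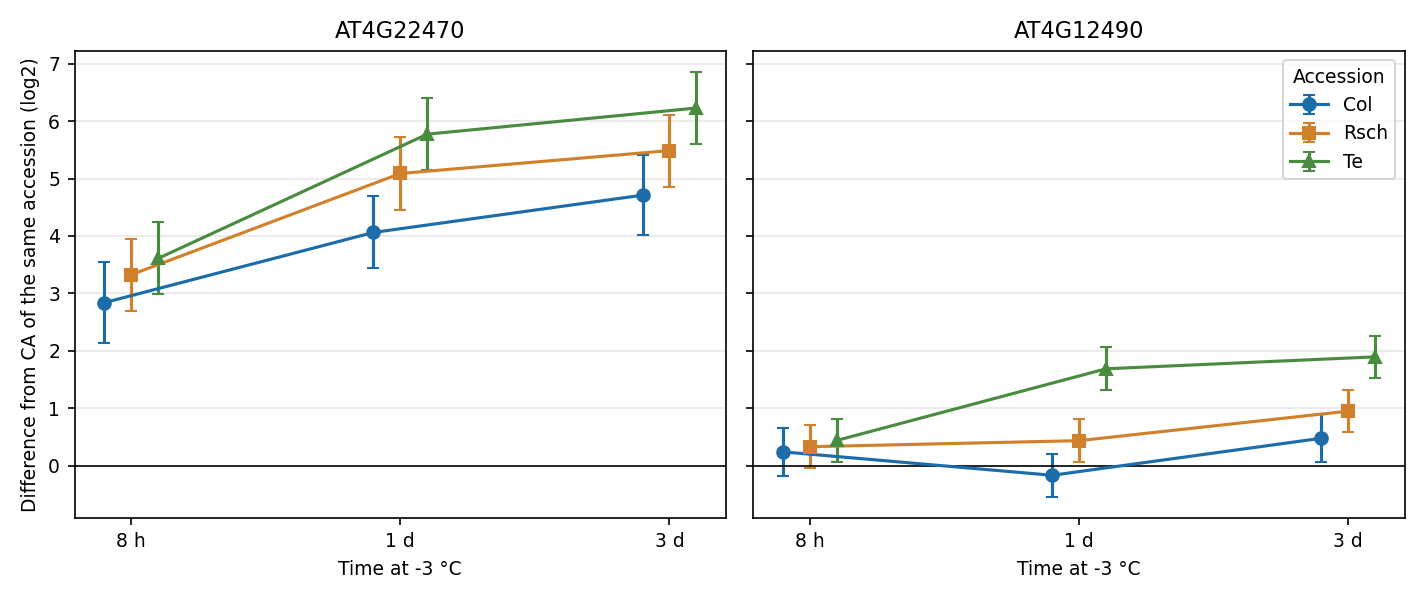
Difference in RMA signal from CA of the same accession (log2) for AT4G22470 (left) and AT4G12490 (right) at 8 h, 1 d and 3 d at -3 °C, 1 line an accession; bars are standard errors from the fit over all arrays. AT4G22470 reaches 4.71 to 6.23 at 3 d, while AT4G12490 reaches 1.89 in Te and 0.48 in Col.

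The accessions differed most in AT4G22470 before the sub-zero treatment. Cold acclimated Te stood at -2.40 ± 0.63 log2 relative to Col and at -1.10 ± 0.63 relative to Rsch. At 8 h the Te minus Col difference was -1.63 ± 0.70, at 1 d -0.69 ± 0.63 and at 3 d -0.88 ± 0.70. The accession means thus spanned 2.40 log2 in CA leaves, 1.63 at 8 h, 0.69 at 1 d and 0.88 at 3 d. Single arrays moved these values, since without Col CA replicate 2 the CA difference was -1.69, and without Col CA replicate 1 it was -2.96. The 8 h difference was -0.97 without Col 8 h replicate 2 and -2.28 without Col 8 h replicate 1. Without the doubted Te arrays Te minus Col was -0.94 at 1 d and -0.64 at 3 d.

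Ordered by mean, the groups of AT4G22470 ran from Te CA at 5.34 ± 0.51 log2 (SD, n = 3) through Rsch CA at 6.44 ± 0.83 and Col CA at 7.74 ± 1.30 to the 8 h groups. These followed as Te at 8.95 ± 1.05, Rsch at 9.77 ± 1.37 and Col at 10.58 ± 0.92 (n = 2). Then came Te 1 d at 11.11 ± 0.59, Rsch 1 d at 11.53 ± 0.47, Te 3 d at 11.57 ± 0.42, Col 1 d at 11.80 ± 0.41, Rsch 3 d at 11.93 ± 0.53 and Col 3 d at 12.45 ± 0.39 (n = 2). Each neighbouring pair in this order had overlapping arrays. The step between neighbours exceeded their pooled SD only from Te CA up to Te 8 h and at Col 3 d, so the 1 d and 3 d groups between Te 1 d and Rsch 3 d were not separated from their neighbours. Replicates of AT4G22470 scattered widely, with a residual SD of 0.82 log2 where the median probe set had 0.22, and 98.4% of probe sets had a smaller one.

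AT4G12490 differed mainly by accession. Its level was high in Col and Rsch in every condition and lower in Te in every condition, while its differences between times were small beside those of AT4G22470. The highest of the 12 Te arrays, the array labelled Te 1 d replicate 1, read 10.36 log2, and the lowest of the 22 Col and Rsch arrays read 10.63. The Te arrays thus did not overlap with the others.

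In Col the AT4G12490 levels were 12.13, 12.09 and 11.76 log2 in CA leaves, 12.23 and 12.24 at 8 h, 11.92, 12.13 and 11.42 at 1 d, and 12.51 and 12.43 at 3 d. Rsch gave 10.63, 11.93 and 11.33 in CA leaves, 11.19, 12.01 and 11.67 at 8 h, 11.71, 11.97 and 11.51 at 1 d, and 12.15, 12.39 and 12.20 at 3 d. In both accessions every 3 d array lay above every CA array, as did the 8 h pair of Col, while the 1 d arrays overlapped with CA. Te gave 8.26, 8.02 and 7.09 in CA leaves, 8.26, 8.22 and 8.21 at 8 h, 10.36, 9.56 and 8.51 at 1 d, and 8.92, 10.20 and 9.93 at 3 d. In Te no 8 h array, but every 1 d and 3 d array, stood above all CA arrays of the accession.

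The difference of Te from Col in AT4G12490 was -4.20 ± 0.37 log2 (SE) in CA leaves, an 18.4-fold difference in signal, and -4.00 ± 0.42 at 8 h. It was -2.35 ± 0.37 at 1 d and -2.78 ± 0.42 at 3 d, or 5.09- and 6.89-fold. Against Rsch, Te stood at -3.51 ± 0.37, -3.40 ± 0.37, -2.25 ± 0.37 and -2.56 ± 0.37 in the same order of conditions. Among 22746 probe sets the CA difference was the 16th lowest for Te minus Col and the 12th lowest for Te minus Rsch. Rsch and Col were closer, at -0.70 ± 0.37 in CA leaves, -0.61 ± 0.42 at 8 h, -0.09 ± 0.37 at 1 d and -0.22 ± 0.42 at 3 d. Without the pair of arrays that went against their labels, Te minus Col was -2.79 at 1 d and -2.40 at 3 d, and Te minus Rsch -2.69 and -2.18. Without Te 1 d replicate 3 the 1 d values were -1.87 against Col and -1.77 against Rsch. In the larger bioC set alone Te minus Rsch in CA leaves was -4.07.

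Within Te, AT4G12490 was higher than in CA leaves by 0.44 ± 0.37 log2 at 8 h, 1.69 ± 0.37 at 1 d and 1.89 ± 0.37 at 3 d, and the last of these is a 3.72-fold difference in signal. Without the doubted pair the later values were 1.25 and 2.28, and without Te 1 d replicate 3 the 1 d value was 2.17, so the size at 1 d depended on single arrays. In the 25 arrays of the larger bioC set alone the 3 d value was 2.51. In Rsch the differences were 0.33 ± 0.37, 0.44 ± 0.37 and 0.95 ± 0.37, and in Col 0.24 ± 0.42, -0.17 ± 0.37 and 0.48 ± 0.42. In Col no difference from CA exceeded 1.5 SE. Averaged over accessions AT4G12490 differed from CA by 0.34 ± 0.22 at 8 h, 0.65 ± 0.21 at 1 d and 1.11 ± 0.22 at 3 d, with ranks of 1342, 1202 and 637 from the top.

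In order of mean, the Te groups of AT4G12490 came first, with CA at 7.79 ± 0.61 log2 (SD, n = 3), 8 h at 8.23 ± 0.02, 1 d at 9.48 ± 0.93 and 3 d at 9.68 ± 0.68. Rsch followed with CA at 11.30 ± 0.65, 8 h at 11.63 ± 0.41 and 1 d at 11.73 ± 0.23, then Col with 1 d at 11.82 ± 0.36, CA at 11.99 ± 0.20 and 8 h at 12.23 ± 0.01 (n = 2). Rsch 3 d at 12.24 ± 0.13 and Col 3 d at 12.47 ± 0.05 (n = 2) closed the order. Neighbouring groups had no overlapping arrays between Te 8 h and Te 1 d, Te 3 d and Rsch CA, Col CA and Col 8 h, and Rsch 3 d and Col 3 d. From Rsch CA up to Col CA no step exceeded the pooled SD of the 2 groups it joined. The actin gap averaged 1.67 log2 ± 0.37 (SD, n = 10) in Col, 1.63 ± 0.34 (n = 12) in Rsch and 1.72 ± 0.44 (n = 12) in Te, and its part in the accession difference was not tested.

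The group means of AT4G22470 and AT4G12490 had a Pearson correlation of 0.47 over the 12 groups, given as a description. In AT4G22470 the larger differences went with condition, and its means also ran in the order Te, Rsch, Col within each condition. In AT4G12490 the larger differences went with accession, and in each accession every 3 d array also lay above every CA array.

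AT4G12490 lies in a row of hybrid proline-rich genes on chromosome 4, with AZI1 and EARLI1 on one side and AT4G12500 on the other. Of these neighbours AT4G12500 had a probe set named here (254819_at), and it was tested, as it was not itself among the genes chosen. Its group means had a Pearson correlation of 0.87 with those of AT4G12490 over 12 groups measured on the same arrays. Genes of such a row can be alike in sequence, and whether either probe set also binds the neighbour's transcript was not tested. The tests of AT4G12500 are therefore not independent of the choice of AT4G12490.

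AT4G12500 read 10.93, 9.94 and 9.49 log2 in CA leaves of Col, 9.15, 10.17 and 10.19 in Rsch, and 8.30, 8.05 and 7.90 in Te. At 3 d it read 12.18 and 11.90 in Col, 11.59, 11.94 and 12.13 in Rsch, and 9.41, 10.36 and 10.34 in Te. Te was thus below the other accessions without overlap both before and after 3 d at -3 °C, and each accession was higher at 3 d than in CA leaves. AT4G12500 rose at 3 d by 1.97 ± 0.25 log2 averaged over accessions (limma adjusted p = 1.18e-06). Its 3 d change was 1.92 in Col (limma adjusted p = 0.00584; 5.93% of all probe sets were called higher), 2.05 in Rsch (0.00267; 4.1%) and 1.95 in Te (0.00266; 5.07%). At 1 d it had risen by 0.82 ± 0.24 (limma adjusted p = 0.012), with a called change of 1.61 ± 0.41 in Te (0.0253; 2.11% called higher) and values of 0.28 in Col (0.746) and 0.56 in Rsch (0.526). At 8 h its value was 0.15 ± 0.25 (limma adjusted p = 0.744), and from 1 d to 3 d it rose by 1.16 ± 0.25 (0.0128; 1.82% called higher). A difference between accessions in the change of AT4G12500 was not called (limma F adjusted p = 1), and without the doubted arrays the averaged 1 d and 3 d changes were 0.67 (limma adjusted p = 0.025) and 2.08 (2.17e-07). The Te change at 1 d was then 1.16 and no longer called (limma adjusted p = 0.108), and it also missed the threshold without Te CA replicate 2 (0.0737), Te CA replicate 3 (0.109) or Te 1 d replicate 2 (0.0599). The Te change at 3 d was 2.26 without the doubted arrays (limma adjusted p = 0.000559), and the Col change at 3 d missed the threshold without Col 3 d replicate 2 (0.0567).

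The accession difference of AT4G12500 was tested after its values had been seen. In CA leaves it was lower in Te than in Col by a log2 difference of -2.03 ± 0.41 (limma adjusted p = 0.00232), in a comparison where 2.86% of all probe sets were called lower, and than in Rsch by -1.75 ± 0.41 (0.0119; 1.68% called lower). At 8 h Te minus Col was -2.76 ± 0.46 (limma adjusted p = 0.000344; 2.24% called lower) and Te minus Rsch -2.15 ± 0.41 (0.00172; 1.81%). At 1 d the values were -0.70 ± 0.41 (limma adjusted p = 0.379; 2.45% called lower) and -0.71 ± 0.41 (0.47; 1.84%), and the Te arrays overlapped with the others, which began at 9.60, through the doubted array at 10.60, while the remaining Te arrays read 9.53 and 8.96. Without the doubted arrays the 1 d values were -1.15 (limma adjusted p = 0.124) and -1.16 (0.149). At 3 d they were -2.01 ± 0.46 (limma adjusted p = 0.00861; 2.39% called lower) and -1.85 ± 0.41 (0.00619; 2.38%), and without the doubted arrays -1.69 (limma adjusted p = 0.0281) and -1.54 (0.0253). The 3 d call against Col was lost within the larger bioC set (limma adjusted p = 0.0555) and without Col 3 d replicate 1 (0.0914) or the array labelled Te 3 d replicate 1 (0.0515). The CA call against Rsch was lost without Rsch CA replicate 2 (0.0704), Rsch CA replicate 3 (0.0685) or Te CA replicate 3 (0.0652).

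**Figure D3:**
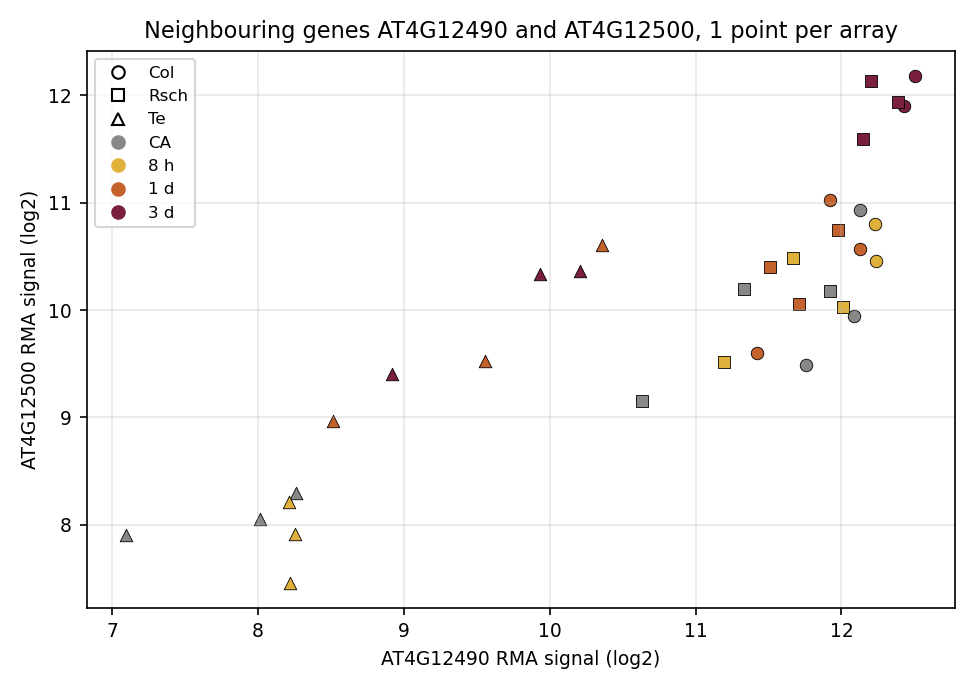
RMA signal (log2) of AT4G12500 against that of AT4G12490, 1 point an array, with symbols for accession and colours for condition. Te arrays (triangles) lie at the left, at 10.36 or below on the horizontal axis, and the 3 d arrays of Col and Rsch lie at the upper right.

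Around AT4G22470 the row of family genes on chromosome 4 includes AT4G22460 and AT4G22490, both 3 genes away in the RefSeq order and both listed as hybrid proline-rich. AT4G22460 rose by 0.29 ± 0.08 log2 at 1 d (limma adjusted p = 0.0113) and by 0.58 ± 0.09 at 3 d (8.95e-06), and its 1 d call was lost within the larger bioC set (0.183). AT4G22610, in the same stretch, rose by 0.35 at 1 d (limma adjusted p = 0.0159) and 0.38 ± 0.11 at 3 d (0.00831). AT4G22490 rose by 0.24 ± 0.09 at 3 d (limma adjusted p = 0.0397), a call lost with quantile normalization (0.132) and in 9 of the 34 fits that leave out 1 array (up to 0.123 without Col 3 d replicate 2). AT4G22640 and AT4G22650, listed as GPI-anchored, stood at 0.14 (limma adjusted p = 0.212) and 0.15 (0.155) at 3 d, and AT4G12530 and AT4G12360 of the other row at 0.19 (0.0715) and 0.21 (0.0919). The called changes in the AT4G22 row were thus each under 0.6 log2 while AT4G22470 differed by 5.48. The highest group means of AT4G22460, AT4G22610 and AT4G22490 were 5.69, 5.42 and 3.99 log2, all below every array median. The small changes of this row were thus read from low signals.

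Beside AT4G22470 and AT4G12490, 41 genes of the lipid transfer family had a probe set named here, namely 10 hybrid proline-rich genes, 4 of type I, 11 of type II including DIR1 relatives, and 16 GPI-anchored. The highest group mean of 18 of them reached 5.32 log2, the 40th percentile of all values, and the other genes were dim throughout. At 8 h 1 of the 41 was called, where 3.36% of all probe sets were called higher and 2.59% lower. It was AT5G38195, a dim type II gene, which rose by 0.17 ± 0.05 (limma adjusted p = 0.0465), and its call was lost in 24 of the 34 fits without 1 array (up to 0.138). At 1 d 5 of 41 rose and 0 fell, where 9.73% of all probe sets were called higher and 15.5% lower. At 3 d 11 rose and 1 fell, where 15.9% were called higher and 21% lower. The median change of the 41 was 0.09, 0.08 and 0.14 log2 at the 3 times, and that of all probe sets 0.00, 0.00 and 0.03.

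The hybrid proline-rich list held most of the calls, with 4 of 10 risen at 1 d and 7 of 10 at 3 d and none fallen, beside 9.73% and 15.9% of all probe sets called higher. Besides AT4G12500, AT2G10940 rose at 3 d by 1.52 ± 0.43 log2 (limma adjusted p = 0.0064), AT2G45180 by 1.36 ± 0.35 (0.00351) and AT1G12100 by 0.39 ± 0.07 (9.05e-05). AT1G12100 had risen at 1 d by 0.32 (limma adjusted p = 0.000669). AT1G12100 and AT4G22490, both among the calls at 3 d, were dim throughout, with highest group means of 3.62 and 3.99 log2. Against the same shares, 1 of 16 GPI-anchored genes rose at 1 d and 3 at 3 d, among them AT1G62790 by 1.14 ± 0.22 (limma adjusted p = 0.000209) and AT5G09370 by 1.01 ± 0.15 (9.64e-06). The third, AT4G14815, rose by 0.27 (limma adjusted p = 0.0432), and AT5G09370 had risen at 1 d by 0.50 (0.0105). Of the type I genes 1 of 4 rose at 3 d, AT2G15325 by 0.22 (limma adjusted p = 0.0275), and it was dim throughout, with a highest group mean of 3.45. Of the type II genes 0 of 11 rose and 1 fell at 3 d, where 21% of all probe sets were called lower, AT1G48750 with a change of -0.96 ± 0.22 (limma adjusted p = 0.000988). AT4G14815, AT2G15325 and AT1G48750 were named after their values had been seen.

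The largest change at 3 d among the 41 genes was the 1.97 of AT4G12500, the 29 genes not called ranged from -0.63 to 0.80, and 5 of the 11 that rose did so by under 0.5 log2. No family gene was called for a difference between accessions in its changes (limma F test, 0 of 41, and 0 at an unadjusted p under 0.05, the smallest being 0.0702), where 0.0528% of all probe sets were.

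**Figure D4:**
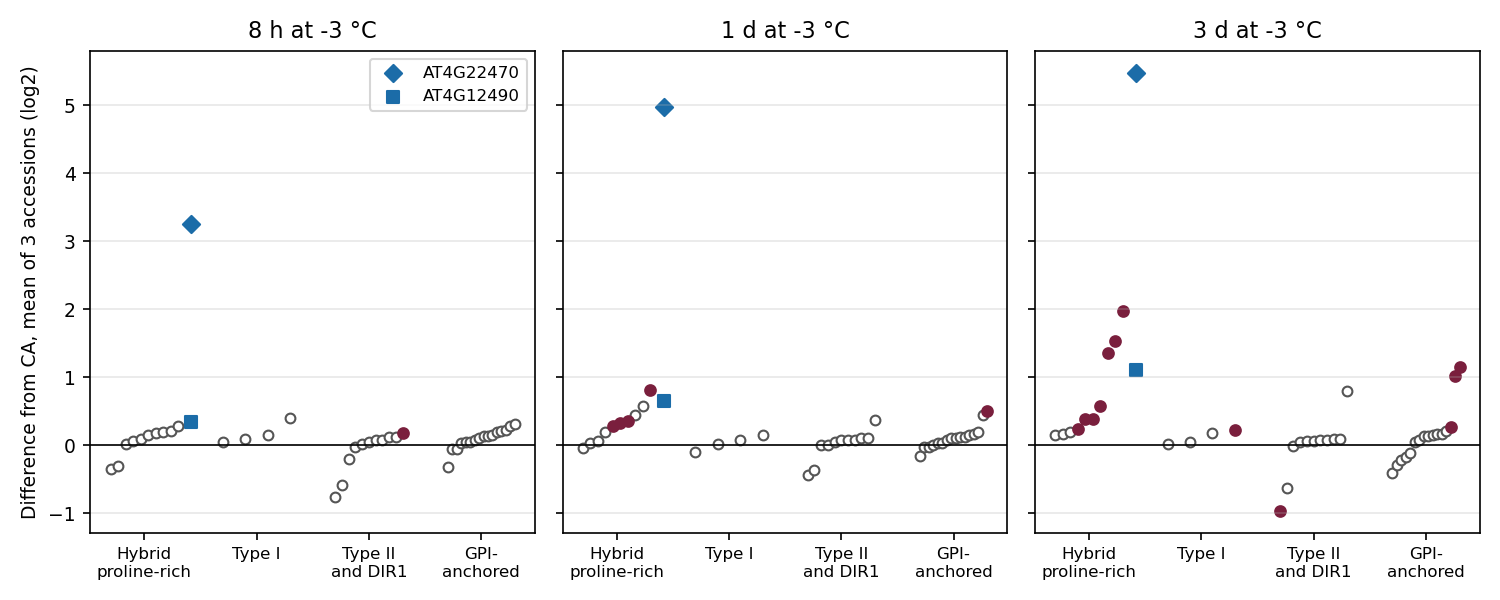
Difference from CA averaged over the 3 accessions (log2) for each gene of 4 lipid transfer lists, in panels for 8 h, 1 d and 3 d at -3 °C. Filled circles have a limma adjusted p under 0.05 and open circles do not, the 2 chosen genes are the blue diamond (AT4G22470) and square (AT4G12490), shown without a test, and AT4G22470 at 5.48 lies above the 1.97 of AT4G12500 at 3 d.

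Other lists that bear on the known roles of the family had few measured genes, and their counts stand beside 3.36%, 9.73% and 15.9% of all probe sets called higher and 2.59%, 15.5% and 21% called lower at 8 h, 1 d and 3 d. Of 25 genes of systemic acquired resistance and salicylic acid 3 were measured, with 1 risen at 8 h, 0 called at 1 d and 1 fallen at 3 d. GRX480, a glutaredoxin gene induced by salicylic acid, rose by 2.13 ± 0.47 log2 at 8 h (limma adjusted p = 0.00626) and stood at 1.07 at 1 d (0.0881) and -0.69 at 3 d (0.257). Without the doubted arrays GRX480 was called at 1 d, at 1.37 (limma adjusted p = 0.00692), and at 3 d, at -1.02 (0.035). AT5G03350 fell by 0.96 ± 0.31 at 3 d (limma adjusted p = 0.0163; 0.0803 without Col 3 d replicate 2), with values of -2.10 ± 0.51 in Te (limma adjusted p = 0.00775), -1.14 in Col (0.186) and 0.37 in Rsch (0.714). In CA leaves AT5G03350 averaged 10.79 log2 in Col and 11.30 in Te but 6.33 in Rsch, so its averaged fall includes an accession with a far lower level. Of 32 cuticle and wax genes only WSD1, a wax ester synthase gene, was measured, at -0.10 ± 0.08 at 3 d (limma adjusted p = 0.34), and it was not called at any time. Of 25 extensin and proline-rich wall genes 9 were measured, of which 2 rose at 8 h, 2 at 1 d and 4 at 3 d and none fell. AT4G08410 rose by 0.51 ± 0.12 at 8 h (limma adjusted p = 0.00876; 0.0528 without Col 8 h replicate 1 and 0.114 in the larger bioC set), and at 3 d AT1G23720 rose by 0.52 ± 0.10 (0.000185) and AT3G24480 by 0.45 ± 0.14 (0.0146; 0.0556 without Col 3 d replicate 2). All genes of this list called at 8 h and 1 d, and all but AT3G24480 at 3 d, had probe sets of the kind that can bind transcripts of other genes. Whether these probe sets share signal was not tested. AT1G23720 was also dim throughout, with a highest group mean of 4.98 log2.

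Likeness to each gene was taken as the Pearson correlation of the 12 group means among 3752 probe sets of 1 named gene whose group means spanned at least 1 log2. Most like AT4G22470 were AT1G51820 (r = 0.960), AT1G03740 (0.953), AT3G47800 (0.952), AT2G38240 (0.951) and AT1G18390 (0.946). AT1G51820 ran from a group mean of 3.97 to 8.89 and AT2G38240 from 5.79 to 11.33, while AT1G03740 spanned 7.22 to 8.36, so alike profiles differed several-fold in size. Most like AT4G12490 were BGLU16 (r = 0.969), named as a beta glucosidase gene, AT5G58840 (0.962), AT1G60730 (0.959), AT3G51580 (0.957) and AT3G60300 (0.951). In BGLU16 the Te CA arrays averaged 5.65 ± 0.70 (SD, n = 3) and the Col CA arrays 8.05 ± 1.28. AT1G60730 likewise stood lowest in Te CA, at 5.27 ± 0.43, and highest in Col 3 d, at 9.70 ± 0.49 (n = 2). All these genes were measured on the same arrays, and the correlations are descriptions.

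**Figure D5:**
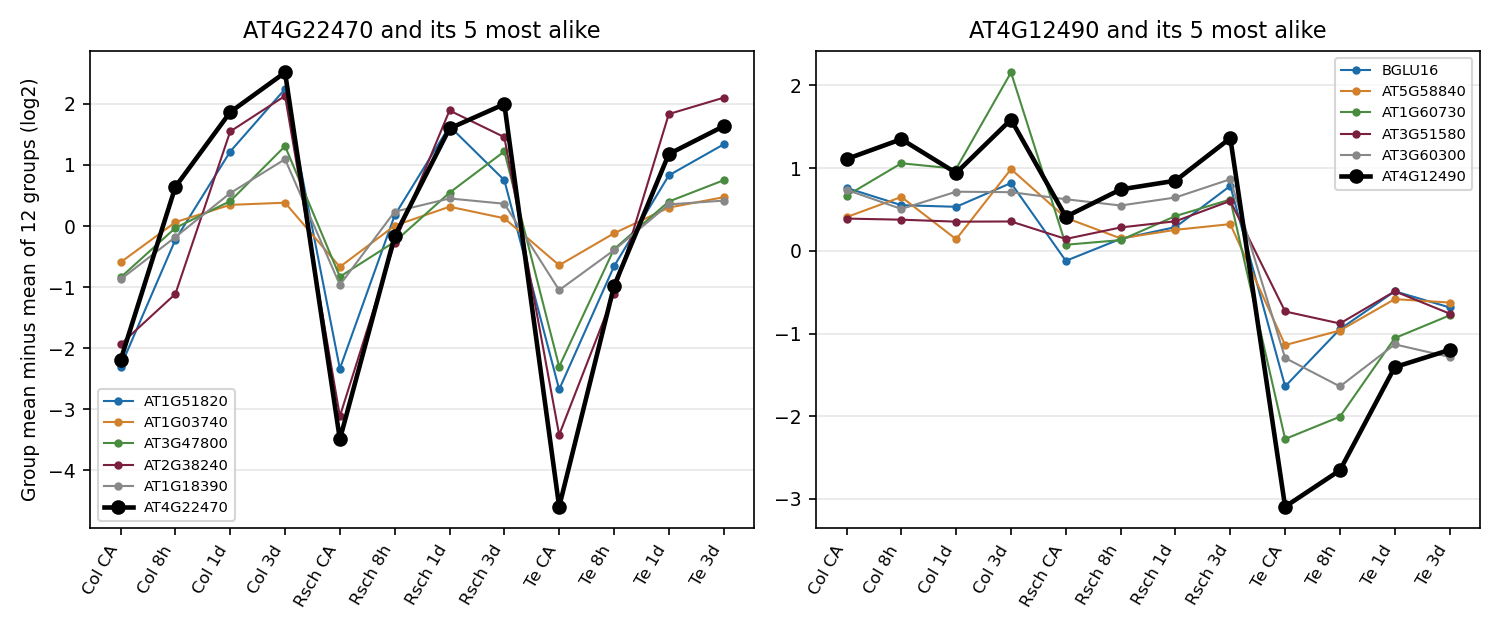
Group mean minus the mean of the 12 groups (log2) for AT4G22470 (left) and AT4G12490 (right), in black, with the 5 genes whose profiles correlate most with each in colour. The left profiles lie lowest in the CA group of each accession, and the right profiles are low in the 4 Te groups.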

How the data were processed

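The authors deposited RMA values per probe set on the log2 scale, per the submitters' processing notes for RMA, RMA's version being not given in these sources, and with the log2 scale taken from the range of the values. RMA scales arrays to a common distribution, so a shift shared by most transcripts would not show. Arrays were grouped by title, and for the third CA replicates, where another label gives replicate number 2, the title was followed. The 64 control probe sets were left out and 22746 tested without a filter. Of these 13513 had 1 gene, 503 had several and 8730 were unnamed here, and only those with 1 gene are named. Symbols and gene order came from a RefSeq table of assembly TAIR10.1, and no coordinates are given because the files name no build.

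A model with 12 group means was fitted to the 34 arrays with limma 3.58.1 (R 4.3.3; 22 residual degrees of freedom). Calls needed a Benjamini-Hochberg adjusted p under 0.05 over all probe sets of a contrast, two-sided. In simulated data for 3 d against CA, 96 of 100 probe sets changed by 1 log2 and 100 of 100 changed by 2 were recovered. Of the 22746 probe sets simulated, those left unchanged gave 6 false calls. The simulated noise was independent between arrays, so these figures do not cover variation that real arrays share. Annotation, summaries and plots were made in Python 3.11.15 with pandas 2.3.3 and with matplotlib 3.10.9.

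The genes, lists, tests and alternatives were chosen with earlier results of these data known. Named genes were the 2 chosen, the 4 called family genes with the largest change at each time, measured family genes of the AT4G12 and AT4G22 rows, up to 3 of each other list, and the 5 most alike. The family lists (hybrid proline-rich, type I, type II with DIR1, GPI-anchored) and those for systemic acquired resistance, cuticle, extensins and cell type markers were drawn up from general knowledge, since the annotation gives these loci no description. Protein and promoter sequences were not used here.

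Alternatives were quantile normalization, median centring, leaving out dim probe sets, the replicate number or the bioC set as a block, the larger bioC set alone, only the conditions compared, a robust eBayes with trend, leaving out the 2 doubted arrays, and leaving out each array in turn.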

Additional observations from a re-analysis of the deposited data

How the results depend on the processing

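AT4G22470 and AT4G12490 kept the direction of their averaged differences under every alternative run, with leave-one-out ranges of 3.04 to 3.50, 4.79 to 5.21 and 5.29 to 5.71 log2 for AT4G22470 and 0.22 to 0.44, 0.50 to 0.81 and 0.99 to 1.23 for AT4G12490 at 8 h, 1 d and 3 d. Within accessions 2 values of AT4G12490 turned. The Rsch difference at 8 h was -0.00228 in the larger bioC set alone and -0.00228 to 0.64 without single arrays (lowest without Rsch CA replicate 1), and the Col difference at 1 d was -0.32 to 0.0321 (highest without Col 1 d replicate 3). AT5G03350 at 8 h, not called, ranged from -0.33 to 0.157 and turned to 0.0175, 0.157, 0.0807 and 0.0438 when 1 array was left out. In the larger bioC set alone the CA difference of AT4G22470 between Te and Col was -3.02, and the family had 9 genes higher and 3 lower at 3 d. The cause was not tested.

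Family counts were smallest and least stable at 8 h, where 1 gene was called: 0 with quantile normalization, without dim probe sets, with the bioC set as a block and in the larger set alone, 2 without the 2 doubted arrays, and 3 with median centring. Median centring, which moves the median of all probe sets to 0.06, 0.09 and 0.13 log2, gave 10 calls at 1 d and 23 at 3 d (22 higher, 1 lower); over all probe sets it turned the 3 d split from 3616 higher and 4787 lower to 7032 and 3745. Without single arrays the family counts were 0 to 2, 5 to 6 and 10 to 15. Extensin counts fell at 8 h to 1 with the bioC block and 0 in the larger set. At 1 d they were 1 with quantile normalization, without dim probe sets and on the conditions compared alone, 0 in the larger set and 4 with median centring. Their leave-one-out ranges were 0 to 3, 1 to 3 and 1 to 5, the lowest at 3 d without Col 3 d replicate 2. The resistance list had 1 call at 1 d without the doubted arrays and 2 at 3 d in the larger set, on the conditions compared alone and without the doubted arrays, with 0 to 1 at both times when single arrays were left out. The cuticle list and the test between accessions stayed at 0 in every fit made. That test has no version on the conditions compared alone, since it uses all of them.

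The replicate numbers were not taken as pairing. Over 177 pairs of arrays with the same number, deviations from group means correlated by -0.243 to 0.608 (median 0.20), with 128 over 0.1. Over 352 pairs with different numbers the median was -0.104, with 30 over 0.1. With the replicate number as a block the family had 2 calls at 8 h and 15 at 3 d (12 higher, 3 lower), and over all probe sets the calls went from 1352 to 2245, 5729 to 7146 and 8403 to 9612. Of the 41 family genes 23 were dim throughout.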
